A study of Mus musculus with 2 samples.

Results

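The genes described are 9 transcription factors that direct the formation of hormone-producing (endocrine) cells: Neurog3, Neurod1, Insm1, Nkx2-2, Rfx6, Fev, Pax4, Pax6 and Isl1. They were taken by symbol, matched through gene IDs to the GENCODE mouse annotation, and all 9 were found among the 43346 genes with an Ensembl ID in the tables. The study measured total RNA by sequencing from the whole stomach of 2 mouse pups of strain B6NCrl on postnatal day 0. Per the labels, the pups came from the same pregnancy, each stomach gave 1 library, the sex was not collected, and no treatment or genotype is named, so the 2 pups form 1 group and no condition is compared. Expected counts (estimated reads) summed to 51524479 for pup 1 and 49983574 for pup 2. Transcripts typical of the labelled tissue were abundant: the surface mucous trefoil gene Tff1 stood at 12948 ± 104 TPM, a level relative to transcript length and to all transcripts of the library, the proton pump gene Atp4b at 768 ± 109 TPM, the stomach mesenchyme gene Barx1 at 156 ± 22.2 TPM and the keratin gene Krt5 of the squamous forestomach at 456 ± 32.5 TPM (SD, n = 2).

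Many, though not all, endocrine cells of the stomach and intestine arise from epithelial progenitors that briefly express Neurog3. This basic helix-loop-helix activator is held back by Notch signalling through Hes1. Neurog3 switches on a second layer of factors, among them Neurod1, Insm1, Nkx2-2, Rfx6, Pax4, Pax6, Fev and Isl1, which choose between hormones and keep the mature cell in its state. Most of this order was worked out in the mouse pancreas and intestine, and several of the factors also act in neurons.

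Isl1 was the only one of the 9 to reach 1 TPM in each pup, at 16.2 TPM in pup 1 and 15.4 TPM in pup 2. The other 8 lay between 0 and 0.89 in pup 1 and between 0.05 and 0.67 in pup 2. Thus 1 of 9 factors (11.1%) passed a limit that 61.2% of all 21474 protein-coding genes passed. The median TPM of the 9 was 0.51 in pup 1 and 0.45 in pup 2, against 3.49 and 3.64 over all protein-coding genes. Isl1 alone held 83.7% and 82.0% of the summed TPM of the 9 genes in pups 1 and 2. In RNA from a whole organ, a low level can come from few cells of a type or from little RNA in each of them, and these cannot be told apart.

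**Figure D1:**
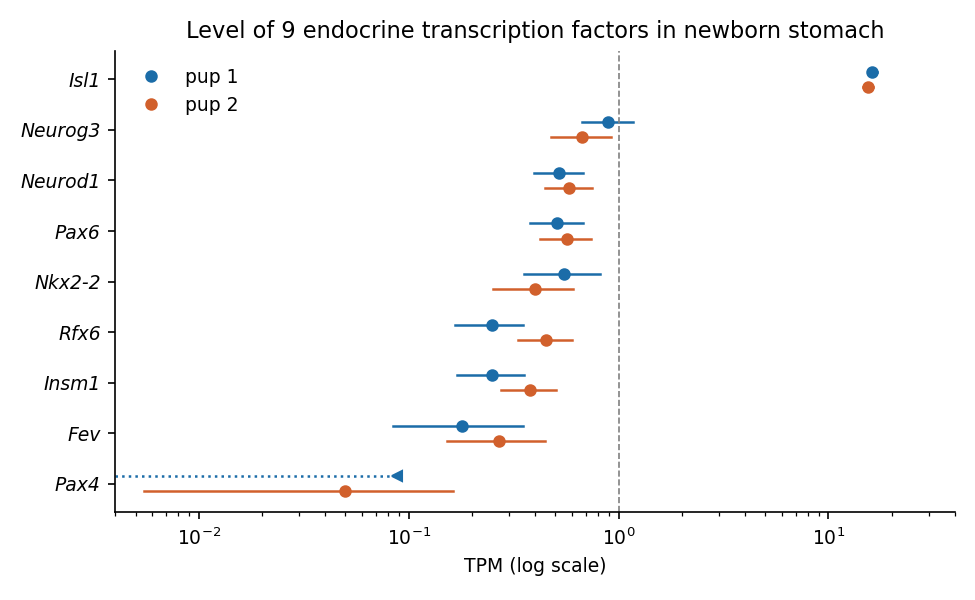
TPM (log axis) of each factor in pup 1 and pup 2, in the order of mean TPM; points are the deposited TPM, bars the exact 95% Poisson interval of the expected count turned into TPM, and the dashed line marks a TPM of 1. Isl1 lies at 16.2 and 15.4, apart from the other 8; the arrow for Pax4 in pup 1, which had 0 counts, is an upper limit of 0.0876.

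The low factors were not without reads. At an expected count of at least 10 in both pups, which 72.1% of protein-coding genes reached, 7 of the 9 factors were present, and the 8 factors other than Isl1 together had 255 counts in pup 1 and 284 in pup 2. Excluding Pax4, these low factors sat between percentiles 28.5 and 37.4 of protein-coding genes by TPM in pup 1, and between 30.0 and 35.3 in pup 2. By mean TPM the order was Isl1, Neurog3, Neurod1, Pax6, Nkx2-2, Rfx6, Insm1, Fev and Pax4. Of the 8 steps in that order, 1 was wider than the deposited credibility intervals in both pups, the step from Isl1 to Neurog3, and the same single step was wider than the Poisson intervals. The deposited intervals of Neurod1 and Pax6 also lay apart in both pups, but against that order. Those of Pax6 ran from 0.882 to 1.64 in pup 1 and from 0.928 to 1.74 in pup 2. Those of Neurod1 ran lower, from 0.392 to 0.662 and from 0.443 to 0.732. The Poisson intervals of these neighbours overlapped. The place of Pax6 thus depends on the estimate used, and the other neighbours below Isl1 are not resolved at this depth.

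Neurog3, the initiator of the endocrine programme (ENSMUSG00000044312.3, mm10 chromosome 10, 62133090 to 62134763), stood at 0.89 TPM in pup 1 and 0.67 TPM in pup 2, with expected counts of 53.2 and 38.6. By TPM it was the highest of the 8 low factors in each pup, but Neurod1 had more expected counts in each. Pax6 stood higher by the second deposited estimate described below. The TPM of Isl1 was 18.2 times that of Neurog3 in pup 1 and 23.0 times in pup 2. Its counts were not whole numbers, as happens where reads are divided between features. The gene overlaps Fam241b on the opposite strand, and 273 of its 1674 exonic bases (16.3%) also lie in exons of Fam241b in the M21 annotation. Fam241b stood at 26.1 TPM in pup 1 and 28.5 TPM in pup 2. Whether the libraries keep strand is not stated, so the level of Neurog3 is uncertain to the extent of that sharing.

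The Notch components fixed as the setting of Neurog3 were all detected, 7 of 7, with a median TPM of 7.31 ± 0.346 (SD, n = 2). Hes1, a repressor that acts downstream of Notch, led at 62.7 in pup 1 and 56.8 in pup 2. It was followed by Rbpj, the DNA-binding partner of the Notch receptors, at 8.95 and 9.93, and by the receptor Notch2 at 9.18 and 9.11. These genes act in many cell types of the stomach, and the cells they came from were not resolved.

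The windows of 250 bases upstream of the annotated start are shown for the 2 factors with the highest TPM, Isl1 and Neurog3, because Neurog3 and its relatives bind E boxes of the form CAGNTG and Hes1 binds N boxes of the form CACNAG. Sequences are from RefSeq (GRCm38.p6, the assembly called mm10), 5′ to 3′ on the gene's strand, with E boxes in capitals; neither window holds an N box.
Isl1 (chr13:116309689-116309938, minus strand): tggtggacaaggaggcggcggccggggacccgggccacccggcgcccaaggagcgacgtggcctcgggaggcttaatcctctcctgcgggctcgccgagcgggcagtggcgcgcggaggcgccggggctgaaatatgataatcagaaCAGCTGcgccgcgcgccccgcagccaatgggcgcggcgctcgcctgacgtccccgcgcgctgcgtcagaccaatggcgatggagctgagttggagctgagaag
Neurog3 (chr10:62132840-62133089, plus strand): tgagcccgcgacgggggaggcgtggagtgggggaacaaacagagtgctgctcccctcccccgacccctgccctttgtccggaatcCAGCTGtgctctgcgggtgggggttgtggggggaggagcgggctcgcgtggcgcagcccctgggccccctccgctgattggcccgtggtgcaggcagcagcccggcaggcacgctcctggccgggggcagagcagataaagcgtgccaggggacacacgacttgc

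RefSeq windows matched 7 of the 9 factors, with 8 windows in all because Pax6 has 2 starts. Searched on both strands, CAGNTG occurred in 3 of these 8 windows (Isl1, Neurog3 and Nkx2-2) and in 44.8% of all 32851 windows of the same length. CACNAG occurred in 2 of the 8 (Rfx6 and the second Pax6 start) and in 36.7% of all windows. No E box place overlapped an N box place in the members' windows. A match is a description of these letters and not a binding site.

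Neurod1, a basic helix-loop-helix factor that Neurog3 activates (chromosome 2, 79452521 to 79456751), stood at 0.52 TPM in pup 1 and 0.58 TPM in pup 2, with 57 and 60.98 expected counts. The Cerkl gene on the same strand overlaps it and shares 201 of its 2729 exonic bases, while the lincRNA Gm26755 on the other strand shares 154. Cerkl stood at 0.58 TPM in pup 1 and 1.03 TPM in pup 2, and Gm26755 at 0 and 0.02 TPM. The levels of Neurod1 in the 2 pups lay close together, with a count ratio of pup 1 to pup 2, per library total, of 0.907 (95% exact interval 0.621 to 1.32).

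Insm1, a zinc finger repressor of early endocrine precursors (chromosome 2, 146221921 to 146225020), stood at 0.25 TPM in pup 1 and 0.38 TPM in pup 2, on its 1 transcript with 31 and 45 counts. No other gene overlaps it. Its count ratio was 0.668 with an interval of 0.409 to 1.08, so a difference between the pups was not detectable at this depth.

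Rfx6, a winged-helix factor needed for islet cells other than the pancreatic polypeptide cell in mice (chromosome 10, 51677756 to 51730432), stood at 0.25 TPM in pup 1 and 0.45 TPM in pup 2, with 31 and 47 counts. Its count ratio was 0.640, and the interval of 0.393 to 1.03 includes 1. Among the factors with at least 20 counts over both pups, only Fev, at 0.582, lay farther from 1. The reads were divided among 3 transcripts. Rfx6-202 had 27.4 and 24.6 counts, and Rfx6-201 had 0 and 7.93. A shorter transcript of 1896 bases that the later annotation no longer lists had 3.63 and 14.5 counts.

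Nkx2-2, a homeodomain factor (chromosome 2, 147177546 to 147194243), stood at 0.55 TPM in pup 1 and 0.40 TPM in pup 2, with only 25 and 22 counts. A large part of this TPM rests on very few reads. The 2 short processed transcripts of the gene, of 340 and 378 bases, together had 3 counts in pup 1 and 1 in pup 2, yet they made up 52.2% and 26.1% of its TPM, since dividing by a short length gives each read more weight. Its protein-coding transcripts alone stood at 0.26 TPM in pup 1 and 0.30 TPM in pup 2, with 22 and 21 counts. The antisense gene Nkx2-2os, which shares 278 exonic bases with it, had 0 counts in both pups, as had 6430503K07Rik, another antisense gene that overlaps its span.

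Fev, an ETS factor known from serotonin neurons and from endocrine precursors (chromosome 1, 74881509 to 74885419), stood at 0.18 TPM in pup 1 and 0.27 TPM in pup 2, with 9 and 15 counts. Nearly all of its reads fell on the protein-coding transcript Fev-201, with 8.43 and 15 counts. Its count ratio was 0.582 with an interval of 0.225 to 1.42.

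Pax4, a paired-domain repressor needed for the beta and delta cells of the mouse pancreas (chromosome 6, 28442334 to 28449353), had 2 counts in pup 2 and none in pup 1, so its level was 0 TPM in pup 1 and 0.05 TPM in pup 2. Both lie under the floor of 3 counts, which corresponds to 0.0712 TPM in pup 1 and 0.0676 TPM in pup 2. It was the single factor of the 9 with no count in a pup. No ratio between pups is given for it.

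Pax6, which carries a paired domain and a homeodomain and acts in the eye, the brain and hormone cells (chromosome 2, 105668900 to 105697364), stood at 0.51 TPM in pup 1 and 0.57 TPM in pup 2, with 49 and 53 counts. These were spread over 26 listed transcripts, 9 of which had any count. A short alternative exon, exon 5a, lengthens the paired domain and changes which DNA it binds. Transcripts that hold exon 5a took 16.5 of the counts in pup 1 and 18.0 in pup 2, and transcripts that skip it had 32.5 and 33.1. By TPM the forms with the exon made up 41.8% and 31.0% of the gene and the forms without it 58.2% and 50.04%. Short transcripts with few counts weigh on these shares: Pax6-213, a processed transcript of 925 bases that holds the exon, made up 17.7% in pup 1 from 3.09 counts, and Pax6-220, a retained intron transcript of 538 bases that covers neither form, made up the remaining 19.0% in pup 2 from 1.88 counts. Both leading protein-coding forms begin at the first start of the gene. Pax6-207, without the exon, took 20.5 of the counts in pup 1 and 13.9 in pup 2, and Pax6-206, with it, had 6.42 and 12.95. The split is an estimate from 49 and 53 counts. The antisense gene Pax6os1, which overlaps the span of the gene but shares no exonic base with it, was read 3 times in pup 1 and 0 times in pup 2.

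An alternative stretch of coding bases in each of Pax6 and Isl1 is shown because it separates the forms described. In Pax6 it is the whole difference between Pax6-206 and Pax6-207. In Isl1 it is 1 of several differences, since Isl1-201 spans 2516 bases and Isl1-202 only 1198. They were read from GENCODE M21 transcripts (assembly GRCm38), 5′ to 3′ on the gene's strand, with the alternative bases in capitals and 15 bases on either side in lower case; all the capitals are coding bases, 42 in Pax6 (14 codons) and 69 in Isl1 (23 codons), and leave the reading frame unchanged.
Pax6 exon 5a (capitals chr2:105684751-105684792, plus strand): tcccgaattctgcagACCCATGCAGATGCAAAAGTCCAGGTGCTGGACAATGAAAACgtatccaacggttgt
Isl1 bases absent from Isl1-202 (capitals chr13:116301710-116301778, minus strand): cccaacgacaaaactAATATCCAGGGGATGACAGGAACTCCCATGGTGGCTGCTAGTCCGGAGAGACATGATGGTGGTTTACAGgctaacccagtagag

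Isl1, a LIM homeodomain factor (ENSMUSG00000042258.9, chromosome 13, 116298281 to 116309689), had 1437 expected counts in pup 1 and 1326 in pup 2. Its TPM of 16.2 and 15.4 averaged 15.8 ± 0.587 (SD, n = 2) and placed it at percentiles 73.3 and 71.9 of protein-coding genes. The deposited intervals of 14.99 to 17.6 in pup 1 and 14.2 to 16.9 in pup 2 overlap, and the count ratio of 1.05 has an interval of 0.975 to 1.13. No other gene overlaps it. Besides endocrine cells, Isl1 is known from sensory and motor neurons and from the mesenchyme of the embryonic mouse stomach near the pylorus, so its RNA in a whole stomach need not come from endocrine cells.

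Isl1 was also the one factor with enough reads to describe its forms. Isl1-201, the full-length coding transcript, held 80.5% of the gene's TPM in pup 1 and 82.4% in pup 2 (mean 81.5 ± 1.39%, SD, n = 2). Isl1-202, which lacks the 69 bases shown, held 10.5% and 8.39%, from 77.1 and 56.4 counts. The transcripts with a retained intron, Isl1-203 and Isl1-205, together held 9.06% and 9.17%. The main transcript was thus the same in both pups for 1 of 1 factor that could be compared, against 91.7% of 9477 protein-coding genes with at least 2 transcripts and 1 TPM or more in each pup.

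**Figure D2:**
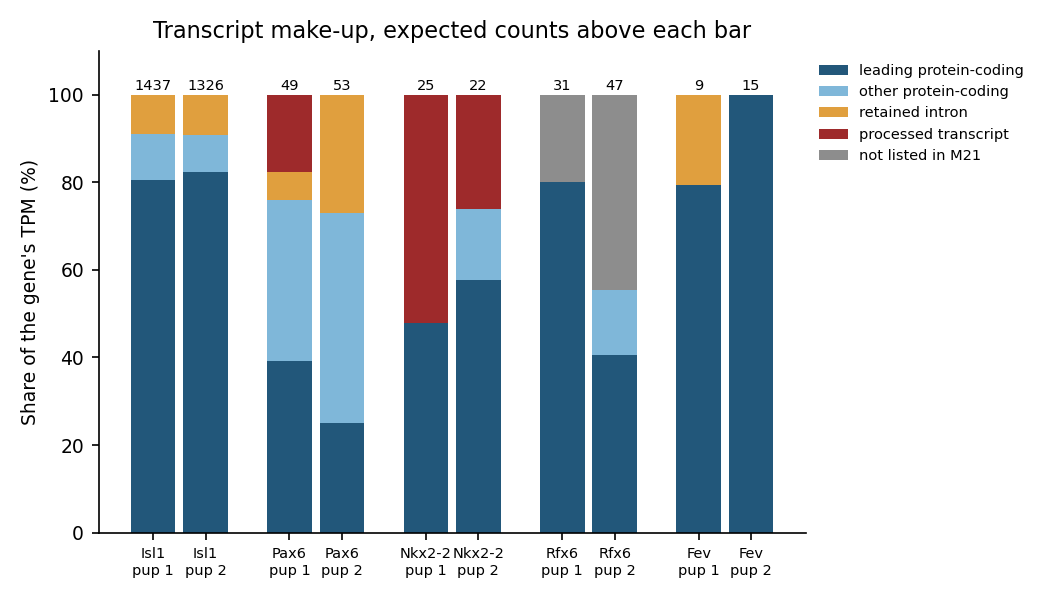
Share of each gene's TPM (percent, linear axis) in its transcripts, by class, for the 5 factors with more than 1 listed transcript and a count in both pups; the expected count of the gene stands above each bar. The bars of Isl1, from 1437 and 1326 counts, look alike in the 2 pups at 80.5% and 82.4% for the leading form, while those of the low factors, from 9 to 53 counts, do not.

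No difference between the 2 pups was detectable for these factors at this depth, which does not show that their levels were alike. The rule of a 2-fold difference with deposited intervals apart needs a mean count of at least 100, which only Isl1 reached, and Isl1 did not meet it; 0.423% of 13951 genes with that count did. Among the 8 factors with at least 20 counts over both pups, the exact interval of the count ratio included 1 in all 8. That interval left out 1 for 37.8% of 15720 protein-coding genes with at least 20 counts, and for 17.4% of the 2484 with 20 to 200 counts, a range chosen after the counts were seen because the low factors lie in it. The median absolute log2 ratio of the 8 was 0.37 on the log2(TPM + 0.1) scale, against 0.12 over the 15720 genes, which have more counts. Neurog3, Nkx2-2 and Isl1 had the higher TPM in pup 1 and the other 6 factors in pup 2, none beyond counting error.

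The deposited tables carry a second estimate, the posterior mean TPM. For the 6 factors with 2 or more listed transcripts it stood above the first in both pups. The size of the gap did not follow the number of transcripts alone. Isl1, with 5, had 16.3 and 15.57 against 16.21 and 15.38. Fev, with 3, had 0.33 and 0.42 against 0.18 and 0.27, and Nkx2-2, with 4, had 0.77 and 0.63 against 0.55 and 0.40. Pax6 had a posterior mean of 1.26 in pup 1 and 1.33 in pup 2, and its deposited intervals of 0.882 to 1.64 and 0.928 to 1.74 leave out its TPM of 0.51 and 0.57. Pax4 had a posterior mean of 0.15 and 0.20, with intervals of 0.0416 to 0.277 and 0.0762 to 0.347 that also leave out its TPM. Of the 9 factors, these 2 lay outside their own interval in both pups, and they have the most listed transcripts, 26 and 6. Neurod1, Insm1 and Neurog3, with 1 transcript each, had both estimates within 0.03 of each other. Over all protein-coding genes 16.0% lay outside in both pups; among those with a mean count of 10 to 100 the share was 0% with 1 transcript, 0.201% with 2 to 4 and 18.6% with 5 or more. With the posterior mean, Pax6 passes a TPM of 1 in both pups and 2 of the 9 factors would count as detected.

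**Figure D3:**
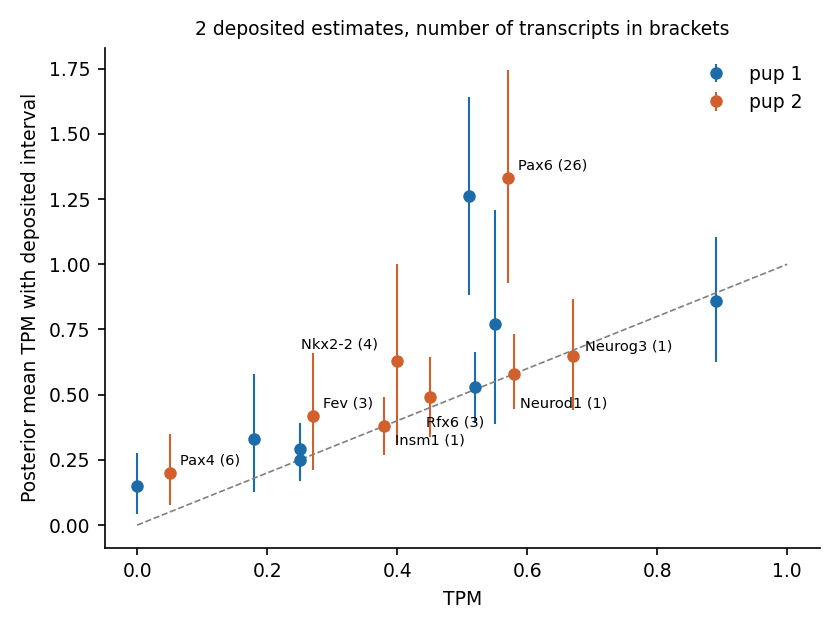
Posterior mean TPM with its deposited credibility interval (vertical axis) against TPM (horizontal axis), both linear, for the 8 factors other than Isl1 in each pup; labels stand at the points of pup 2, and the dashed line marks equality. Factors with 1 transcript lie on the line, and Pax6, with 26 transcripts, lies at 1.26 and 1.33 against a TPM of 0.51 and 0.57.

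Set among the genes of their own families, the factors were often not the leading member. In the basic helix-loop-helix list, Bhlha15, a factor of secretory cells, was the 1 of 9 genes detected, at 7.93 TPM in pup 1 and 9.95 TPM in pup 2. Neurog3 and Neurod1 followed it, and Atoh1, the secretory cell factor of the intestine, had 8 and 5 counts. By TPM, none of the 9 Pax genes was detected. Pax9, a factor of foregut endoderm, came nearest at 0.88 and 1.11, above Pax6. The order of these 2 genes is not resolved. The deposited intervals of Pax9, 0.715 to 1.07 in pup 1 and 0.938 to 1.31 in pup 2, overlap those of Pax6. By the posterior mean, Pax6 passed a TPM of 1 in both pups. Isl1 exceeded Isl2, its only close relative, which stood at 2.13 and 1.52. Among the 7 Nkx2 genes, Nkx2-3, a gut mesenchyme factor, was detected at 4.94 and 4.63. Rfx6 lay below 5 of the other Rfx genes, namely Rfx7 (3.82 and 4.21), Rfx5 (2.52 and 2.75), Rfx1 (2.11 and 2.21), Rfx2 (2.19 and 2.16) and Rfx3 (1.70 and 1.66). Fev lay below its relatives Fli1 (4.25 and 3.93) and Erg (1.85 and 1.08), which are active in endothelium and blood cells. Insm2 stood at 0.02 and 0.06, below Insm1.

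**Figure D4:**
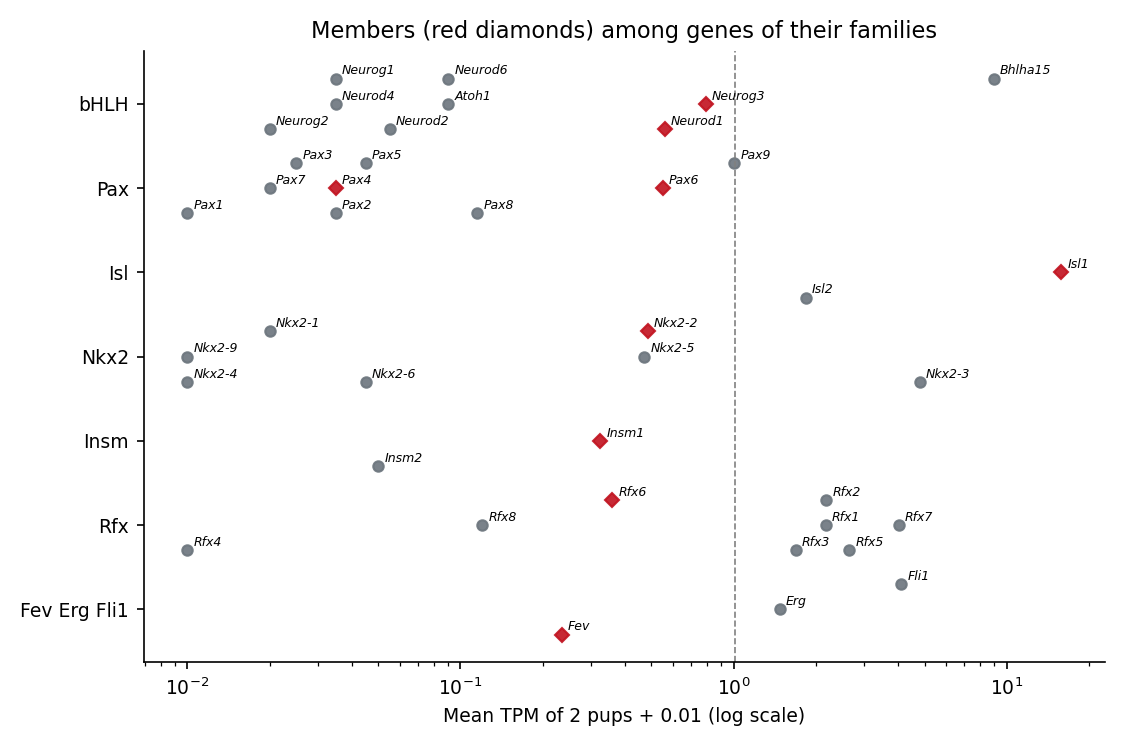
Mean TPM of the 2 pups plus 0.01 (log axis) for every gene of the families to which the factors belong; red diamonds are the 9 factors, grey points their relatives, the dashed line marks a TPM of 1, and vertical offsets within a row only keep labels apart. Isl1 leads its family at 15.8, while Rfx6 at 0.35 and Fev at 0.225 lie left of detected relatives.

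A further 20 factors known from gut or pancreatic endocrine cells had a higher median, 3.08 ± 0.569 TPM (SD, n = 2), and 14 of them were detected. The 3 highest by mean TPM were Sox4 at 19.3 in pup 1 and 20.0 in pup 2, Foxa1 at 13.8 and 24.6, and Etv1 at 17.3 and 17.0, with Foxa1 above Sox4 in pup 2. These 3 are also expressed outside endocrine cells, Foxa1 in much of the gut epithelium and Etv1 in the pacemaker cells of gut muscle.

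The hormone genes with the highest levels stood above all 9 factors, Isl1 included. Of 11 hormone genes 8 were detected, led by the ghrelin gene Ghrl at 389 TPM in pup 1 and 423 TPM in pup 2, the somatostatin gene Sst at 67.6 and 67.1 and the gastrin gene Gast at 72.7 and 44.6. Of 12 genes for granins and prohormone processing 11 were detected, with a median of 6.54 ± 0.00354, and the carboxypeptidase Cpe (100 and 128), the chromogranin Chga (24.8 and 28.2) and Scg5 (12.8 and 13.3) led. Of 9 genes for serotonin and histamine 5 were detected, led by the decarboxylase Ddc at 20.9 and 20.7, the monoamine oxidase Maob at 14.6 and 16.2 and Gch1, which makes a cofactor of serotonin synthesis, at 10.6 and 10.3. Tph2, the serotonin enzyme of neurons, had 1 count in each pup, and Tph1, that of gut endocrine cells, stood at 0.64 and 0.42.

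Several of the 9 factors are shared with other tissues, so markers of those were read alongside. The enteric neuron list had 11 of 13 genes detected, none at 0 in both pups, summing to 177 TPM in pup 1 and 172 TPM in pup 2, and was led by Uchl1 (51.5 and 49.96), Vip (45.2 and 35.1) and Tubb3 (20.9 and 21.2). The list of stomach mesenchyme factors had 5 of 8 detected, with a sum of 367 and 422, led by Pitx1 (165 and 183), Barx1 (141 and 172) and Foxf1 (50.9 and 54.9). In the mesenchyme list Nkx2-5, a factor of the pyloric sphincter region, had 46 counts in pup 1 and 8 in pup 2, a ratio of 5.58 (95% exact interval 2.61 to 13.7). The part of these cells in the level of Isl1 was not tested.

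The pancreatic islet list had 3 of 7 genes detected, summing to 7.86 TPM in pup 1 and 11.9 TPM in pup 2. The pancreatic polypeptide gene Ppy stood at 4.67 and 2.86, the insulin gene Ins2 at 1.47 and 5.55 and Nkx6-1 at 1.47 and 2.74. Ins2 had 22 and 82 counts, a ratio of 0.260 (95% exact interval 0.155 to 0.421), and Ins1 9 and 26. Ppy went the other way, with 77 and 45 counts, a ratio of 1.66 (1.13 to 2.45), so the islet genes did not differ in 1 direction. The beta cell genes Mafa and Slc30a8 had 0 and 1 counts in each pup. The acinar list had 4 of 6 detected and a sum of 44.7 and 36.2, led by Ctrb1 (20.6 and 17.2), Cela2a (19.3 and 15.6) and Cel (2.77 and 1.66), and the intestinal list 4 of 6 with a sum of 41.9 and 31.4, led by Fabp2 (18.5 and 15.6), Vil1 (10.96 and 9.54) and Alpi (9.83 and 4.89). Alpi and the lactase gene Lct were higher in pup 1, with count ratios of 2.03 (1.81 to 2.28) and 2.14 (1.85 to 2.48). They were the only genes of all the lists to pass the 2-fold rule, which needs a mean count of at least 100. Genes with fewer counts, such as Ins2 and Nkx2-5, could not pass it. The intestinal master factors Cdx2 (5 and 4 counts) and Cdx1 (16 and 15) were low. The part of pancreatic or intestinal RNA in the levels of the 9 factors was not tested.

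**Figure D5:**
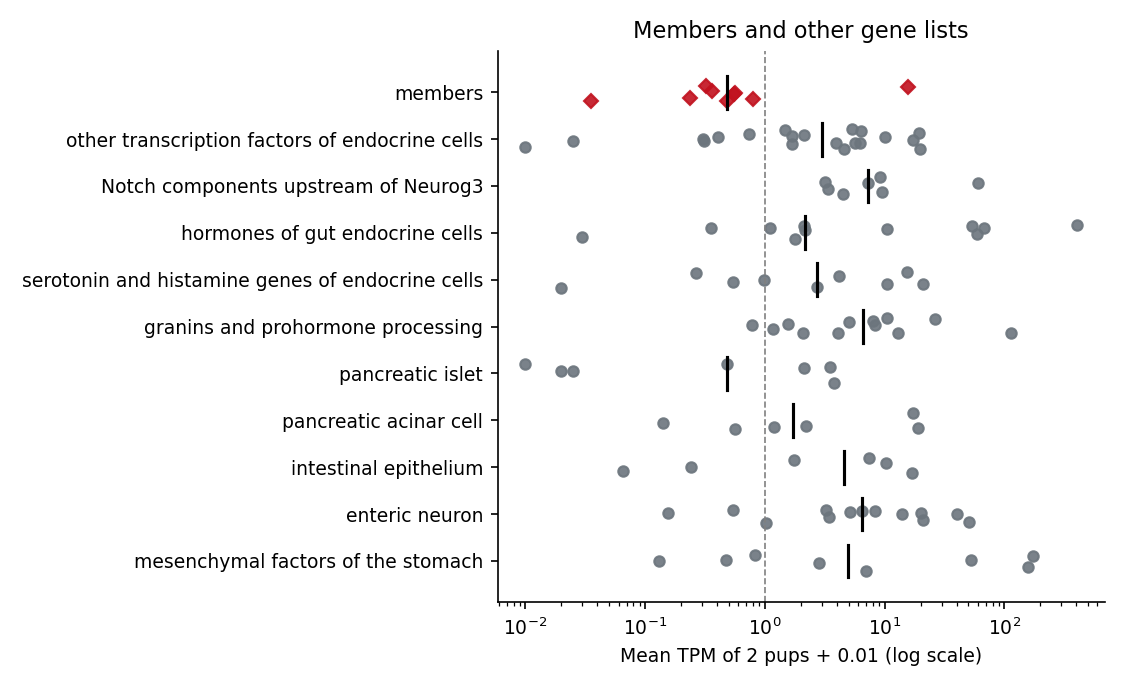
Mean TPM of the 2 pups plus 0.01 (log axis) for the genes of each list; red diamonds are the 9 factors, black bars the median over genes of the mean TPM, and the dashed line marks a TPM of 1. The factors, with Isl1 apart at 15.8, lie left of most hormone and granin genes, of which Ghrl reaches a TPM of 406.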

How the data were processed

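Build mm10 and the GENCODE M4 annotation are named in the samples' deposited text; per the labels, 10 ng of RNA above 200 nucleotides went into each library. Not given in the sources used here are the strandedness, aligner and quantification program. The deposited expected counts estimate the reads of a gene or transcript and carry no depth scaling. The deposited TPM values are scaled over all features of a library and come with a posterior mean and a credibility interval, whose level is not stated. The deposited isoform shares give, as percent, how each gene divides over its transcripts by TPM.

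Symbols came from GENCODE M21 by ID without version, which matched 42462 of 43346 genes. Spike-in and tRNA entries, 0.000536% of the counts of pup 1 and 0.000755% of those of pup 2, stayed out of all lists. Detected means 1 TPM or more in each pup, which 61.2% of all protein-coding genes reached. The detected counts of the lists are to be read beside that share. Count ratios per library total have exact (Clopper-Pearson) 95% intervals, and levels exact Poisson intervals; these, and the floor of 3 counts, cover counting error only, since amplified reads are not independent molecules. The log2 ratio between pups adds 0.1 to the TPM. With 1 library per pup in 1 group no test between the pups was made. TMM (edgeR 4.0.16) and DESeq2 1.42.0 size factors, on counts rounded to whole numbers of genes with a mean of at least 10, served as alternatives; other steps used Python 3.11.15 with pandas 2.3.3 and scipy 1.17.1. The call rules and scalings were tested on simulated data.

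The members and lists were chosen with earlier results of these data known. The genes named are the 9 members, the 3 highest of each other list, each detected relative and each overlapping gene; others named (the tissue genes Tff1, Atp4b and Krt5, and Tph1, Tph2, Atoh1, Pax9, Insm2, Ins1, Mafa, Slc30a8, Cdx1, Cdx2, Nkx2-5, Lct) were chosen after their values were seen. With 2 samples of 1 group, no gene can be named for a pattern like that of a member.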

Additional observations from a re-analysis of the deposited data

How the results depend on the processing

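The number of factors detected followed the limit. It was 1 of 9 at a TPM of at least 1 or 5 and in each pup alone, 4 at 0.5 and 8 at 0.1, 2 with the posterior mean TPM, and 7 at an expected count of at least 10, a limit chosen after the data were seen. The median level of 0.48 ± 0.0424 became 0.555 with the posterior mean TPM and lay between 0.45 and 0.51 in the pups alone. Of the 9 ranks, 3 were the same with the posterior mean TPM, which puts Pax6 second, and 3 with expected counts not divided by length, while 6 to 7 were the same in single pups; Isl1 stayed first and Pax4 last in all of these. The count of factors beyond 2-fold between pups was 0 under all settings, but a mean count of at least 100 let in Isl1 alone, also at 1.5-fold, and a mean count of at least 10 left out Pax4. The main transcript of Isl1 was the same with shares from the posterior mean. With a pseudocount of 1 or other scalings, the 24 recomputed log2 ratios of the 8 factors other than Pax4 shifted by at most 0.44; these settings use the same reads and say little about stability. No paired analysis was possible because the labels give 1 group. With 2 pups and 9 to 61 counts for most of the low factors, differences smaller than these intervals were not detectable.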
